A study of Mus musculus with 21 samples.

Results

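Astrocyte genes were followed in the brains of mice dosed with HsTX1[R14A], a scorpion-toxin analog that blocks the voltage-gated potassium channel Kv1.3. The set was a fixed list of 44 genes of resting and reactive astrocytes, matched by gene symbol and not by any measured value. Of these, 40 were among the 16318 genes of the count table and all 40 passed the filter on low counts (16303 genes passed in all). The expression of Gli3os, Lcn2, Timp1 and Steap4 was not analysed here. All 21 mice were SAMP8, a senescence-accelerated strain that develops memory deficits early, and no control strain was among these libraries. From 4 months of age, 12 mice (6 female, 6 male) received PBS and 9 mice (3 female, 6 male) received HsTX1[R14A] at 1 mg/kg under the skin every other day for 8 weeks. RNA from the whole brain was taken at 6 months, with 1 library per mouse. The labels give no other difference between the groups, and mice are named below by treatment and number.

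Astrocytes are the glial cells that take up potassium and neurotransmitter from the extracellular space, couple to each other through gap junctions, and wrap blood vessels with end feet rich in water channels. They supply neurons with metabolites, and after injury or during inflammation they enlarge and raise filament proteins such as GFAP, a state called reactive. The members were grouped by what their products do: filaments and calcium binding, channels and junctions, transporters, transcriptional regulators, receptors, metabolic enzymes, and secreted proteins. Because whole brain was sequenced, fewer astrocytes and less RNA per astrocyte cannot be told apart for any value given here.

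Library totals ran from 14917174 to 47613792 estimated counts, and every member had at least 12 counts in every mouse. The lowest counts were those of Osmr (12) and Nes (22), for which the sampling of reads adds to the spread between mice. Levels are given as CPM, the count of a gene scaled to a common library total after TMM normalization, and differences as log2 fold changes, treated over PBS, with sex in the model. FDR is the p-value of edgeR's quasi-likelihood test adjusted over all 16303 genes, and a gene was called at an FDR of at most 0.05. Both treatments were given within each cage, but the labels do not name cages, so cage could not be put in the model. Libraries carried 2 forms of name in the table (15 mice with one form and 6 with the other), and they differed in how the level of a gene depended on transcript length. How the member values moved with both is given after the treatment comparison.

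The defining astrocyte genes were present in every mouse. Per kilobase of the longest transcript, S100b, the calcium-binding protein of astrocytes and some oligodendrocytes, stood highest at a mean of 139 CPM per kilobase over the 21 mice, followed by the filament gene Gfap at 104. Next came Mfge8, a secreted bridging protein for phagocytosis, at 60.8, the gap junction protein gene Gja1 at 52.8 and the fatty acid binding protein gene Fabp7 at 52.1. The water channel gene Aqp4 was at 35.4, Sox9 at 10.9, Vim at 10.4 and Aldh1l1, the folate enzyme used as a general astrocyte marker, at 10.1. At the low end stood 4 genes linked to reactive or immature astrocytes or to lipid signaling, namely S1pr3 at 1.2, Nes at 1.05, Cd44 at 0.853 and Osmr at 0.355.

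Between PBS mice the members varied about as much as other genes, with a median coefficient of variation (SD over mean) of 19.4% for the 40 members and 20.7% for all genes tested. Pla2g7, a lipoprotein-associated phospholipase, varied least at 9.1%, and Gja1 varied by 11.3%. Agt, the angiotensin precursor made by astrocytes of only some brain regions, varied most at 47.7%, with 7.08 CPM in PBS mouse 101 and 94.7 CPM in the highest PBS mouse. Gfap varied by 34.1% and Nes by 46.1%.

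Single mice accounted for many of the extremes. PBS mouse 83 held the highest value of the 21 for 6 members, of which Gfap, Vim, Cd44, Cp and Osmr belong to the reactive list. PBS mouse 101 held the lowest value for 10 members, including Gja1, Vim, Cd44 and Agt. HsTX1[R14A] mouse 71 was highest for 7 members, among them Serpina3n, a protease inhibitor that marks reactive astrocytes, and HsTX1[R14A] mouse 93 was lowest for 7, among them Aldh1l1. PBS mouse 103 held the highest value for 5 members and the lowest for 8, and the library of this mouse also had the fewest counts. As a summary, the mean over the 40 members of log2 CPM, centered on all mice, ran from -0.344 (mouse 101) to 0.182 (mouse 83) in PBS mice and from -0.277 (mouse 93) to 0.159 (mouse 71) in HsTX1[R14A] mice. The ranges of the 2 groups overlapped almost entirely, with medians of 0.056 and -0.019.

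**Figure D1:**
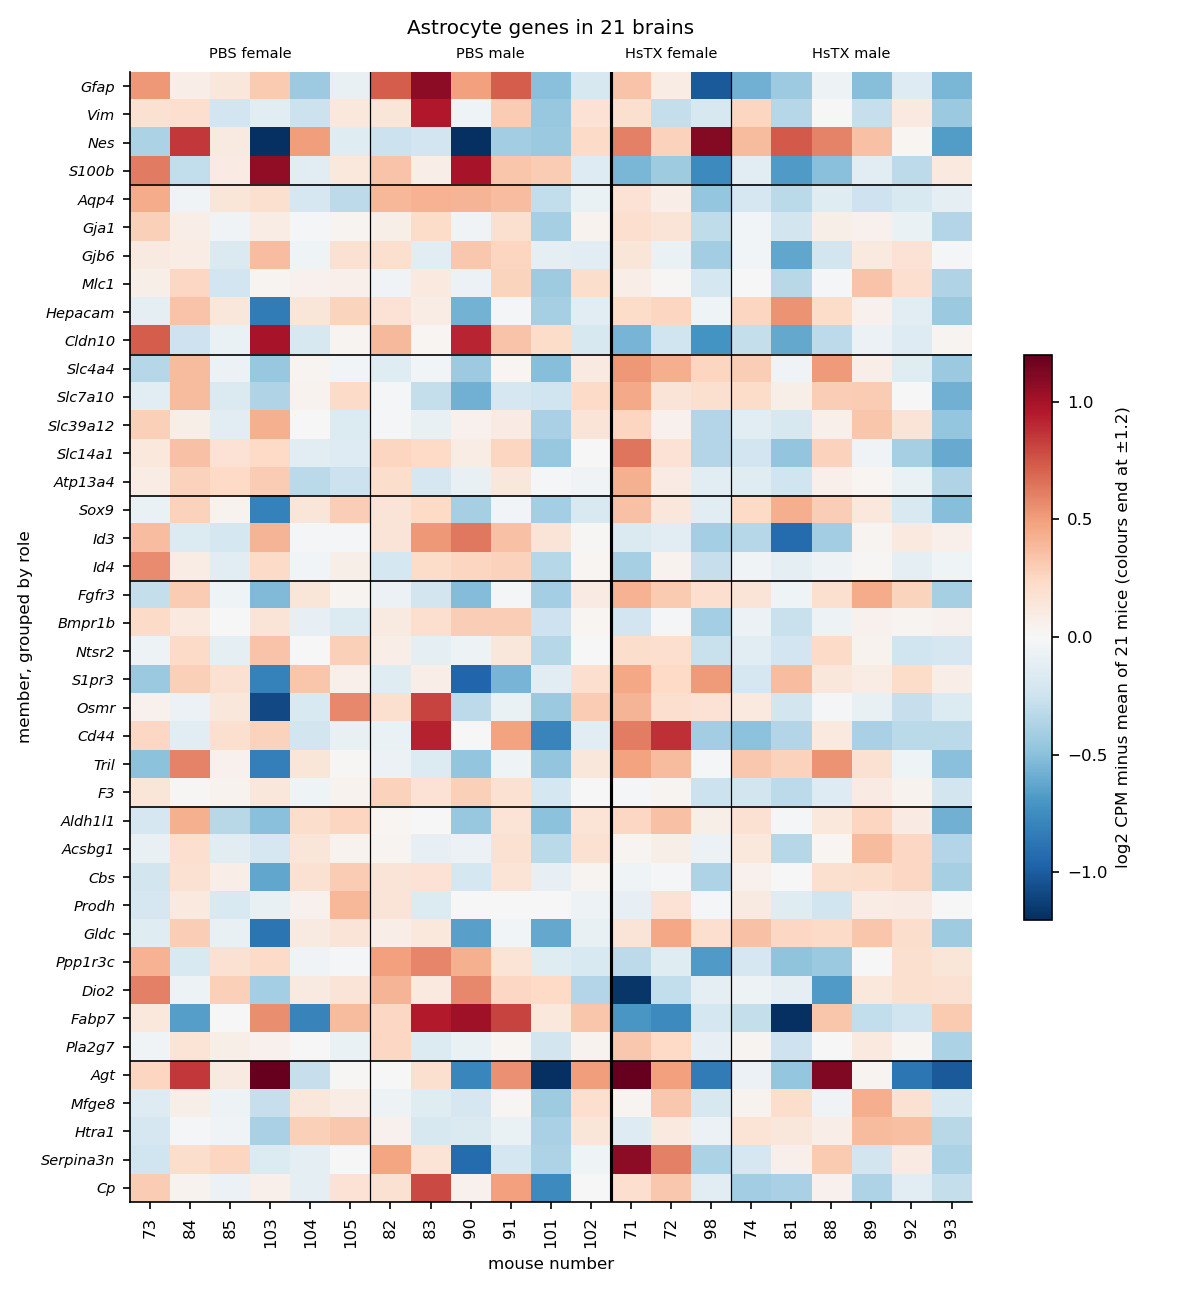
Log2 CPM of the 40 members (rows, grouped by role from filaments at the top to secreted proteins at the bottom) in 21 mice (columns, by treatment and sex), each minus its mean over all mice. Red is above and blue below the mean; the reactive genes Gfap, Vim, Cd44 and Cp are red together in PBS mouse 83, and S100b and Cldn10 are reddest in PBS mice 103 and 90.

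The first question was which astrocyte genes differed between HsTX1[R14A] and PBS brains. Of the 40 members, 11 were called, or 27.5%, where 31.6% of all genes tested were called. Fgfr3, Slc4a4 and Nes were higher, against a background of 15.5% of all genes called higher, and S100b, Cldn10, Id3, Fabp7, Ppp1r3c, Gfap, F3 and Aqp4 were lower, against 16.1% called lower. The share of members called was near the background, so the count says nothing particular about astrocyte genes. The median log2 fold change of the members was -0.04 (all genes -0.01), with a range from -0.72 to 0.64. Among the other 29 members, Dio2, Bmpr1b, Gldc and S1pr3 lay nearest to the threshold, with FDRs of 0.0511, 0.0518, 0.0547 and 0.0603.

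Among filaments and calcium binding, S100b and Gfap were lower and Nes was higher. S100b (chr10:76253853-76261159, plus strand, overlapped on the other strand by Dip2a) ran from 158 to 405 CPM in PBS mice (median 225.5) and from 114.5 to 211 CPM in HsTX1[R14A] mice (median 144). All 9 HsTX1[R14A] mice lay below the PBS median and 6 lay below the lowest PBS mouse. The means were 246 ± 79.3 CPM (SD, n = 12) and 152 ± 31.1 CPM (SD, n = 9), and the log2 fold change was -0.72 (SE 0.17, FDR = 0.0152). The call stood in each of the 21 fits that left out 1 mouse. Oligodendrocytes also use S100b, and 9 of 15 oligodendrocyte markers were called lower (1 higher), where 16.1% of all genes were called lower and 15.5% higher. The summed level of these markers ran from 4749 to 7198 CPM in PBS mice and from 3596 to 5296 CPM in HsTX1[R14A] mice. With the transcript length slope described below as a covariate, no gene of all 16303 was called, so none of these markers could be. Their median log2 fold change went from -0.4 to -0.23. The part of oligodendrocytes in the S100b difference was not tested.

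Gfap (chr11:102887336-102900912, minus strand) encodes the main intermediate filament of astrocytes. PBS mice ran from 182 to 542 CPM (median 300.4) and HsTX1[R14A] mice from 128 to 326 CPM (median 190.3). The ranges overlapped, with 8 of 9 HsTX1[R14A] mice below the PBS median and 4 below the lowest PBS mouse. From a mean of 320 ± 109 CPM (SD, n = 12) to 214 ± 61.0 CPM (SD, n = 9), Gfap fell by 0.59 on the log2 scale (SE 0.20, FDR = 0.0312). The call was lost without PBS mouse 90 (FDR = 0.0579) or 91 (FDR = 0.0503) and without HsTX1[R14A] mouse 98 (FDR = 0.0627), 74 (FDR = 0.0551) or 81 (FDR = 0.0552), while the fold change stayed between -0.73 and -0.49.

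Vim, the vimentin filament gene that astrocytes share with vessel and ependymal cells, was not called. Its PBS values ran from 21.7 to 57.9 CPM (median 32.7) and its HsTX1[R14A] values from 21.8 to 35.4 CPM (median 26.1), and the groups overlapped throughout. The log2 fold change was -0.23 (SE 0.14, FDR = 0.198). Nes, the nestin filament gene of progenitors, reactive astrocytes and endothelium, was the scarcest of the 4 and the highest in fold change of all 40 members. PBS mice held 1.56 to 10.6 CPM (median 4.90) and HsTX1[R14A] mice 3.64 to 12.6 CPM (median 7.58). All but 1 HsTX1[R14A] mouse lay above the PBS median, yet only 1 exceeded the highest PBS mouse. Nes was 5.32 ± 2.45 CPM (SD, n = 12) against 7.96 ± 2.51 CPM (SD, n = 9), a log2 fold change of 0.64 (SE 0.24, FDR = 0.0470), and the call stood in 6 of the 21 fits that left out 1 mouse, with an FDR of up to 0.105 in the others.

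The channels and junctions held 2 called genes of 6, both lower. Cldn10, a claudin of tight junctions that is enriched in astrocytes, ran from 33.7 to 79.5 CPM in PBS mice (median 43.8) and from 24.3 to 40.8 CPM in HsTX1[R14A] mice (median 32.7). None of the 9 HsTX1[R14A] mice reached the PBS median. The means were 49.5 ± 15.99 CPM (SD, n = 12) and 32.4 ± 5.59 CPM (SD, n = 9), with a log2 fold change of -0.64 (SE 0.16, FDR = 0.0171), and each fit without 1 mouse kept the call. Aqp4, the water channel of the end feet on chromosome 18, ran from 141 to 238 CPM in PBS mice (median 197) and from 127 to 197 CPM in HsTX1[R14A] mice (median 154). All 9 HsTX1[R14A] mice were below the PBS median, although 7 of them still lay within the PBS range. The log2 fold change was -0.30 (SE 0.11, FDR = 0.0477), and the call stood in 8 of 21 fits without 1 mouse, with an FDR of up to 0.0965 in the others.

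Gja1, which encodes connexin 43 of the gap junctions, showed no called difference. It ran from 154 to 248 CPM in PBS mice (median 212) and from 160 to 234 CPM in HsTX1[R14A] mice (median 199.5). The values of the 2 groups were interleaved, with a log2 fold change of -0.08 (SE 0.08, FDR = 0.439). Gjb6, the other astrocyte connexin gene, had a log2 fold change of -0.18 (FDR = 0.170). Mlc1 and Hepacam, a membrane protein and its adhesion partner whose loss causes a brain edema disorder in people, had log2 fold changes of -0.05 (FDR = 0.705) and 0.18 (FDR = 0.292).

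Of 5 transporters, Slc4a4 alone was called. This sodium bicarbonate cotransporter, which sets the pH in and around astrocytes, ran from 108 to 200.1 CPM in PBS mice (median 149) and from 113 to 221 CPM in HsTX1[R14A] mice (median 185). The upper part of the ranges differed, with 3 HsTX1[R14A] mice above every PBS mouse and 2 below the PBS median. The log2 fold change was 0.32 (SE 0.12, FDR = 0.0459), and the call stood in 8 of 21 fits without 1 mouse, with an FDR of up to 0.0930 in the others. Slc7a10, a transporter of D-serine and other small amino acids, ran from 12.3 to 23.9 CPM in PBS mice (median 16.6) and from 12.3 to 25.3 CPM in HsTX1[R14A] mice (median 20.98). The groups overlapped over nearly the whole range, and at a log2 fold change of 0.25 (SE 0.12, FDR = 0.0999) Slc7a10 was not called. The zinc transporter gene Slc39a12, the urea transporter gene Slc14a1 and the pump gene Atp13a4 had log2 fold changes from -0.13 to -0.03.

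Of the 3 transcriptional regulators measured, Id3 was called. Id proteins bind basic helix-loop-helix factors and keep them from DNA, and Id3 lies in the path of BMP signals in astrocytes. Id3 (chr4:136143497-136145755, plus strand) ran from 18.7 to 33.6 CPM in PBS mice (median 23.99) and from 11.3 to 23.3 CPM in HsTX1[R14A] mice (median 19.1). All 9 HsTX1[R14A] mice were below the PBS median and 4 below every PBS mouse. The log2 fold change was -0.44 (SE 0.12, FDR = 0.0199), and no fit without 1 mouse lost the call. Its relative Id4 ran from 46.8 to 87.6 CPM in PBS mice (median 62.6) and from 44.9 to 60.8 CPM in HsTX1[R14A] mice (median 56.6). No HsTX1[R14A] mouse reached the PBS median, but Id4 was not called, with a log2 fold change of -0.21 (SE 0.10, FDR = 0.0891). Sox9, the transcription factor that starts and maintains the astrocyte fate, had PBS values from 25.1 to 54.1 CPM (median 44.2) and HsTX1[R14A] values from 30.9 to 59.8 CPM (median 48.4). The groups overlapped, and the log2 fold change was 0.16 (SE 0.13, FDR = 0.359).

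Receptors and surface proteins moved in both directions. Fgfr3, a fibroblast growth factor receptor of astrocytes and their precursors, ran from 55.3 to 98.7 CPM in PBS mice (median 76.6) and from 60.9 to 109 CPM in HsTX1[R14A] mice (median 92.1). All but 1 HsTX1[R14A] mouse lay above the PBS median and 3 above every PBS mouse. The log2 fold change was 0.32 (SE 0.11, FDR = 0.0326), and the call stood in 15 of 21 fits without 1 mouse, with an FDR of up to 0.0634 in the others. F3, the tissue factor that starts coagulation and is made by astrocytes in the brain, varied little within groups, from 28.9 to 40.8 CPM in PBS mice (median 35.6) and from 26.97 to 35.8 CPM in HsTX1[R14A] mice (median 29.98). The difference was small in size, with 4 HsTX1[R14A] mice below every PBS mouse. F3 fell by 0.20 on the log2 scale (SE 0.07, FDR = 0.0352), and 13 of 21 fits without 1 mouse kept the call, with an FDR of up to 0.0776 in the others. The remaining 6 genes of this role were not called, from Bmpr1b, a BMP receptor, at a log2 fold change of -0.20 to S1pr3, a sphingosine-1-phosphate receptor, at 0.36. Between them lay Cd44, the hyaluronan receptor, at -0.09, Ntsr2, a neurotensin receptor, at -0.05, Osmr, the oncostatin M receptor, at -0.03 and Tril, a partner of Toll-like receptors, at 0.32.

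Metabolic enzymes and lipid binding proteins held 2 called genes of 9, both lower. Fabp7 (chr10:57784881-57788450, plus strand), the brain fatty acid binding protein of radial glia, astrocytes and oligodendrocyte precursors, ran from 24.3 to 85.5 CPM in PBS mice (median 51.8) and from 17.9 to 53.4 CPM in HsTX1[R14A] mice (median 34.6). The ranges overlapped for 8 of the 9 HsTX1[R14A] mice, and 7 lay below the PBS median. Fabp7 fell by 0.68 on the log2 scale (SE 0.20, FDR = 0.0206), a call kept in each of the 21 fits without 1 mouse. Ppp1r3c, the subunit that brings protein phosphatase 1 to glycogen, the sugar store held mainly by astrocytes in the brain, ran from 48.9 to 83.8 CPM in PBS mice (median 62.8) and from 34.8 to 63.7 CPM in HsTX1[R14A] mice (median 48.6). Of the 9 HsTX1[R14A] mice, 5 were below every PBS mouse. The log2 fold change was -0.41 (SE 0.12, FDR = 0.0218), and no fit without 1 mouse lost the call.

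Aldh1l1 ran from 29.1 to 55.7 CPM in PBS mice (median 41.7) and from 27.7 to 52.6 CPM in HsTX1[R14A] mice (median 45.1). The groups overlapped throughout, with a log2 fold change of 0.15 (SE 0.13, FDR = 0.348). Dio2, which makes active thyroid hormone, had a log2 fold change of -0.40 (SE 0.15, FDR = 0.0511), and Gldc, the decarboxylase of glycine breakdown, one of 0.34 (SE 0.13, FDR = 0.0547), so both missed the threshold narrowly. Acsbg1, a fatty acyl-CoA synthetase, Pla2g7, the proline dehydrogenase gene Prodh and the cystathionine synthase gene Cbs had log2 fold changes between -0.05 and 0.03.

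No secreted protein of the 5 measured was called. Serpina3n ran from 15.95 to 42.1 CPM in PBS mice (median 28.6) and from 23.2 to 63.8 CPM in HsTX1[R14A] mice (median 31.5). Only HsTX1[R14A] mice 71 and 72 exceeded the highest PBS mouse, and the log2 fold change was 0.26 (SE 0.17, FDR = 0.229). Mfge8 ran from 105 to 161.5 CPM in PBS mice (median 135) and from 122 to 189.9 CPM in HsTX1[R14A] mice (median 145), with a log2 fold change of 0.16 (SE 0.09, FDR = 0.157). Cp, the copper-carrying ferroxidase ceruloplasmin, ran from 6.17 to 18.2 CPM in PBS mice (median 10.9) and from 7.85 to 13.1 CPM in HsTX1[R14A] mice (median 9.60). The HsTX1[R14A] mice lay inside the PBS range, and the log2 fold change was -0.23 (SE 0.14, FDR = 0.207). Htra1, a secreted protease, and Agt had log2 fold changes of 0.13 (FDR = 0.326) and 0.11 (FDR = 0.821).

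**Figure D2:**
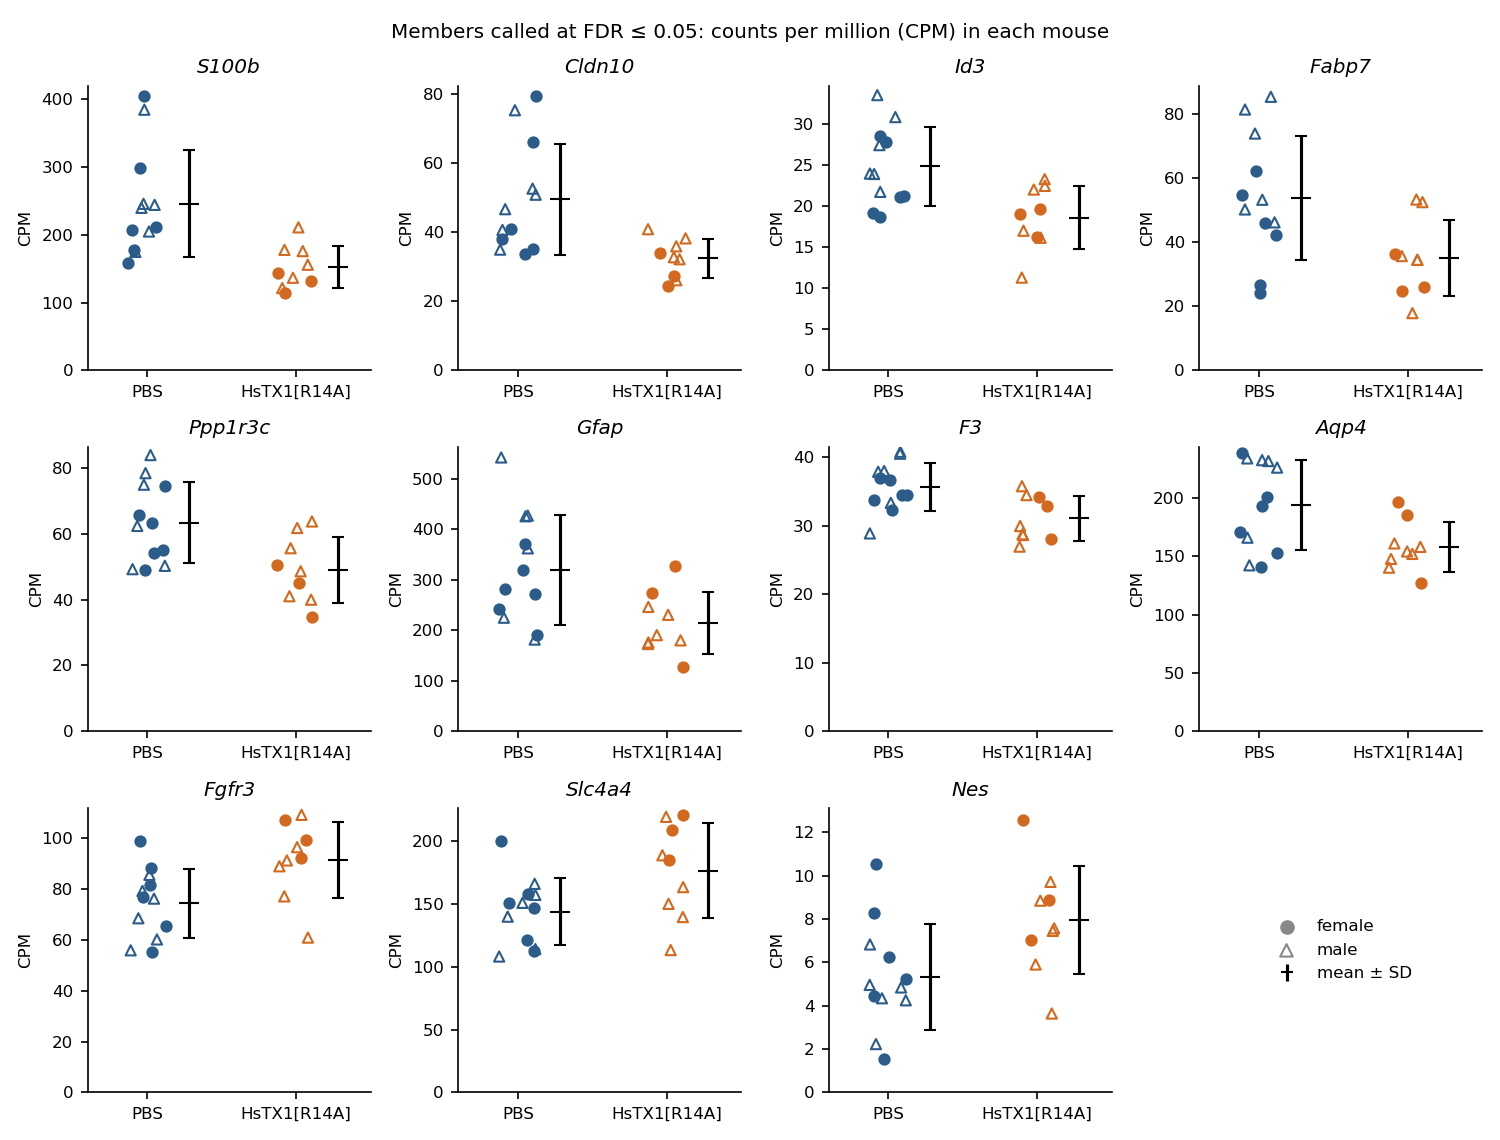
CPM in each mouse for the 11 called members; filled circles are females, open triangles males, and bars beside the points give the mean ± SD of 12 PBS and 9 HsTX1[R14A] mice. The axes start at 0; the 9 HsTX1[R14A] mice of S100b end at 211 CPM, below PBS mice 103 and 90 near 400 CPM, while Nes, Fgfr3 and Slc4a4 sit higher in HsTX1[R14A] mice with wide overlap.

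In the model of sex and treatment, the reactive members did not move one way. Of 8 measured, Gfap was called lower, Nes was called higher and 6 were not called, with a median log2 fold change of -0.06. With the transcript length slope described below as a covariate, no gene of all 16303 was called, and the median of the reactive members was -0.22. Gfap then had -0.58, Vim -0.38, Osmr -0.35, Cp -0.30, Nes -0.13, Cd44 -0.13, Serpina3n -0.02 and S1pr3 0.01. Without the slope, genes outside the set gave the following counts, to be read against the 16.1% of all genes called lower and the 15.5% called higher. Of 11 A1-type reactive genes, an older label for a state induced by inflammation, 6 were called lower and 0 higher (median log2 fold change -0.35), among them the immunoproteasome gene Psmb8 at -0.53 (SE 0.14, FDR = 0.0171) and H2-T23 at -0.43 (SE 0.12, FDR = 0.0185). Of 9 A2-type genes, 2 were called lower and 0 higher, namely Tm4sf1 at -0.49 (FDR = 0.0260) and Cd14 at -0.42 (FDR = 0.0226). Both of these lists hold genes that microglia or vessel cells also use. With the length slope, where no gene at all was called, only the fold changes of the 2 lists can be compared. The median was then -0.35 for A1-type genes, and it went from -0.31 to -0.15 for A2-type genes. Psmb8 had -0.35 (FDR = 0.381), H2-T23 -0.41 (FDR = 0.31), Cd14 -0.34 (FDR = 0.399) and Tm4sf1 -0.15 (FDR = 0.695). Of 6 further genes raised in many reactive states, 2 were called higher and 0 lower. These 2 were the small heat shock protein gene Hspb1 at 0.46 (FDR = 0.0238) and the signal transducer gene Stat3 at 0.41 (FDR = 0.0285). The other 4 had negative fold changes, among them Cxcl10 at -1.04 (FDR = 0.0999) and C3 at -0.48 (FDR = 0.217), and the median of the 6 was -0.12. With the length slope, Hspb1 had 0.29, Stat3 0.01, Cxcl10 -0.7 and C3 -0.8, and the median was -0.22. Of 39 other astrocyte genes, 7 were called lower and 1 higher, led by the metallothionein genes Mt2 at -0.51 (SE 0.10, FDR = 0.0151) and Mt1 at -0.36 (SE 0.10, FDR = 0.0180) and by the sodium pump subunit gene Atp1b2 at 0.80 (SE 0.28, FDR = 0.0393). With the length slope, Mt2 had -0.25 and Mt1 -0.27, while Atp1b2 turned to -0.12 (FDR = 0.744).

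Markers of other brain cells moved beside these genes, and their part in the member differences was not tested. Against the same shares of all genes, 7 of 15 microglia markers were called lower and 0 higher, with a summed level of 551 to 797 CPM in PBS mice and 478 to 684 CPM in HsTX1[R14A] mice. Of 15 neuron markers, 4 were called higher and 0 lower (7963 to 11770 CPM against 9839 to 13580 CPM), and of 15 endothelial and mural markers 3 were called higher and 0 lower (243 to 336 CPM against 249.6 to 352 CPM). Of 10 oligodendrocyte precursor markers, 2 were called higher and 1 lower. Ependymal and choroid plexus markers (3 of 15 called lower) ranged from 88.9 to 1172 CPM in PBS mice and from 75.1 to 890.1 CPM in HsTX1[R14A] mice, and leptomeningeal markers (1 of 10 called lower) from 321 to 1145 CPM and from 271 to 796 CPM. Bergmann glia and cerebellar markers (1 of 10 called higher) ranged from 303 to 538 CPM and from 248 to 1039 CPM, with Pcp2 and Gabra6 at 0 in at least 1 mouse. The summed choroid plexus and ependymal markers differed most between mice within either group. With the length slope, no gene of all 16303 was called, so calls cannot be compared between these lists. Median log2 fold changes went from -0.31 to -0.12 for microglia, 0.21 to 0.04 for neuron and 0.25 to -0.02 for endothelial and mural markers. They went from 0.14 to -0.01 for oligodendrocyte precursor and from -0.45 to -0.33 for leptomeningeal markers. Ependymal and choroid plexus markers (-0.41 and -0.43) and Bergmann glia and cerebellar markers (0.7 and 0.71) changed little.

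The promoters of 4 called members are shown because these genes moved in opposite directions and have a single start site in the table; they were chosen after their values were seen. Id3 and Gfap also have 1 start site, but their windows lie inside the annotated gene, and Ppp1r3c is not shown. The 4 are S100b, Fabp7 and F3, which were lower, and Nes, which was higher. The sequences are from RefSeq (build GRCm38.p6) and lie on the plus strand, from 250 bases before the start site to the start site or to the first annotated base of the gene. The windows are chr10:76253586-76253835 for S100b, chr10:57784673-57784880 for Fabp7, chr3:121723287-121723536 for F3 and chr3:87970843-87971077 for Nes. Capitals mark the motif TTGGC on either strand (GCCAA on the strand shown), the core of the half-site of nuclear factor I proteins, which act with Sox9 in astrocytes.
S100b: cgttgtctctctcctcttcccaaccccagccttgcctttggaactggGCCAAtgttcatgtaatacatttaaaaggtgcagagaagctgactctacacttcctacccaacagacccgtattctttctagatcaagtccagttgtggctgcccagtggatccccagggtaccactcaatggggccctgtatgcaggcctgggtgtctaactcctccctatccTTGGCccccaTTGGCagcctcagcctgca
Fabp7: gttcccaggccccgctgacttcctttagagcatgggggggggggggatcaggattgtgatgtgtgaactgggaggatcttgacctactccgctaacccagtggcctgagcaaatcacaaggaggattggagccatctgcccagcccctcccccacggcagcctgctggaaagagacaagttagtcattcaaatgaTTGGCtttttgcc
F3: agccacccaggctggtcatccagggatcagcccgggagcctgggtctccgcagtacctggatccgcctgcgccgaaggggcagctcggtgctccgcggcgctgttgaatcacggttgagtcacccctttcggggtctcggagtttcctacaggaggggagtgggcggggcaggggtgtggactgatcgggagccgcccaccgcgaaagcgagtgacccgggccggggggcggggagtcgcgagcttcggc
Nes: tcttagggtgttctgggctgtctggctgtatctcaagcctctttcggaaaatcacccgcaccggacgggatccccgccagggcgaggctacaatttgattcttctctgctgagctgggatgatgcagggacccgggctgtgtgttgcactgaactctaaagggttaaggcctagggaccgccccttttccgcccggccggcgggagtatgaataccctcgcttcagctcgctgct
In the 250 bases before the start, TTGGC on either strand occurred 3 times in S100b, 1 time in Fabp7 and not in F3 or Nes. Promoters were found for 40 of the 44 listed genes (47 promoters, called member promoters here). Of these promoters, 57.4% held the motif at least once, against 41.5% of all 32851 promoters in the table. Lcn2, Timp1 and Steap4, whose expression was not analysed, are among these genes, while Gli3os, Aqp4, Sox9 and Slc14a1 have no entry. Of the 13 promoters of 10 called members (Aqp4 has no entry), 38.5% held it. The motif TTCNNNGAA, read by STAT factors and the same on both strands, was in 12.8% of the member promoters and 7.02% of all promoters, and in 0 of the 13 promoters of called members. The motif CANNTG, the E-box of basic helix-loop-helix factors and also the same on both strands, was in 59.6% of the member promoters, 66.2% of all promoters and 53.8% of those of called members. Matches of the 3 motifs were counted separately and may overlap, and the member promoters were richer in G and C (median 56.4% against 52.4%).

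Transcript length moved with the treatment difference. For each library, the slope of its log2 CPM, centered on all mice, on the log2 length of the longest transcript was fitted across genes. PBS mice had slopes from -0.384 to 0.147 (mean -0.0764, SD 0.161, n = 12) and HsTX1[R14A] mice from -0.142 to 0.234 (mean 0.102, SD 0.119, n = 9), with PBS mice 103 (-0.384) and 90 (-0.338) lowest. The same 2 mice held the highest S100b (405 and 384 CPM) and Cldn10 (79.5 and 75.2 CPM) of all 21. When all genes were split into 3 length classes of nearly equal number, 12 members fell in the shortest (880 to 2330 bases), of which 5 were called lower and 0 higher, where 1463 of the 5408 genes of that class were called lower and 159 higher. Of the 14 members in the longest class (4238 to 7931 bases), 3 were called higher and 1 lower, where 1649 of 5406 genes were called higher and 328 lower. The middle class held 14 members, of which 2 were called lower and 0 higher, where 820 of 5410 genes were called lower and 707 higher.

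**Figure D3:**
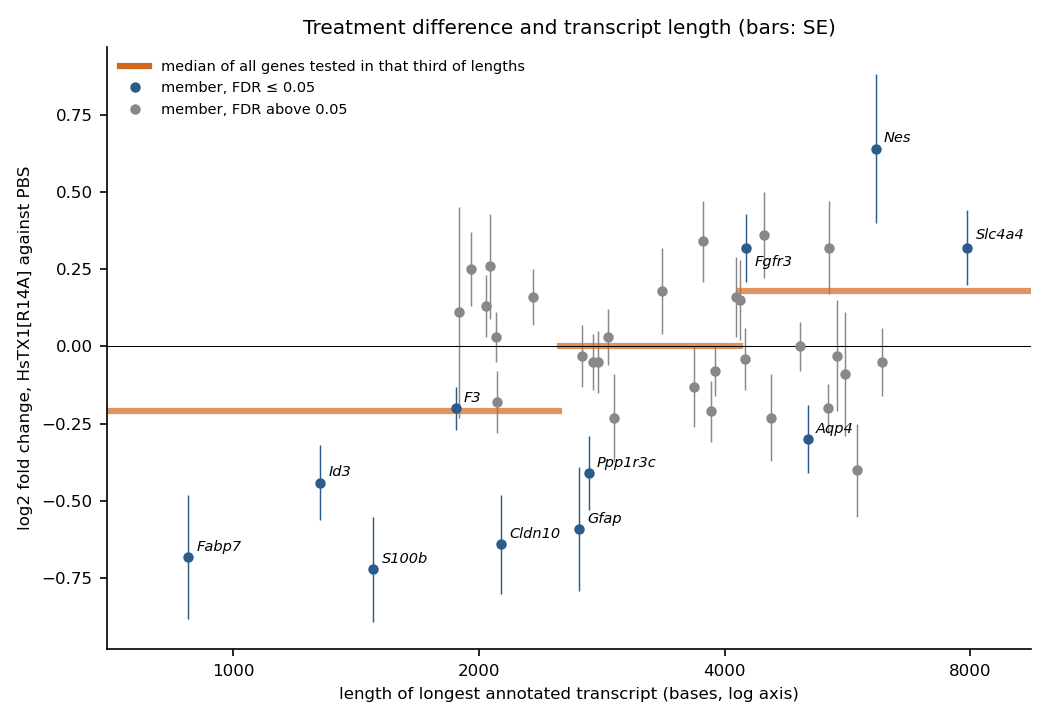
Log2 fold change, treated over PBS (vertical axis, bars SE) against the length of the longest transcript in bases (log axis) for the 40 members; orange lines are the medians of all genes tested in the short, middle and long length classes. Fabp7, Id3, S100b and Cldn10 are short and lower, Fgfr3, Slc4a4 and Nes are long and higher, and the medians run from -0.21 in the shortest to 0.18 in the longest class.

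With this slope as a further term of the model, no gene of the 16303 was called by edgeR (1865 had an unadjusted p under 0.05), and no member. The median log2 fold change of the members moved from -0.04 to -0.11, and that of all genes from -0.01 to -0.02. An unadjusted p under 0.05 was found for 5 members, all lower. With the slope, S100b had a log2 fold change of -0.20 (SE 0.07, unadjusted p = 0.0118, FDR = 0.331), Cldn10 of -0.13, Id3 of -0.17 and Fabp7 of -0.38. Slc4a4 (0.03) and Fgfr3 (0.08) lay close to 0 and Nes turned to -0.13. Of the 40 members, 14 changed sign, among them Hepacam, from 0.18 to -0.21 (SE 0.08, unadjusted p = 0.0199, FDR = 0.360), and Tril, from 0.32 to -0.09. Gfap kept its size at -0.58 (SE 0.24, FDR = 0.375, unadjusted p = 0.0243), and Aqp4 had -0.22. Vim had a larger difference than before, -0.38 (SE 0.16, unadjusted p = 0.0282, FDR = 0.389), as did Cbs at -0.28 (FDR = 0.308), the lowest FDR of the members. When trends of each library on length and GC content were removed gene by gene, 5 members were called, all lower (15.3% of all genes were called), namely Gfap at -0.67 (FDR = 0.0265), S100b at -0.44 (FDR = 0.0135), Cldn10 at -0.49 (FDR = 0.0207), Cbs and Dio2. Gfap differed by a similar amount in all 3 fits. DESeq2 on the model without these terms called 15 members (37.7% of all genes) and limma/voom 12 (31.9%).

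**Figure D4:**
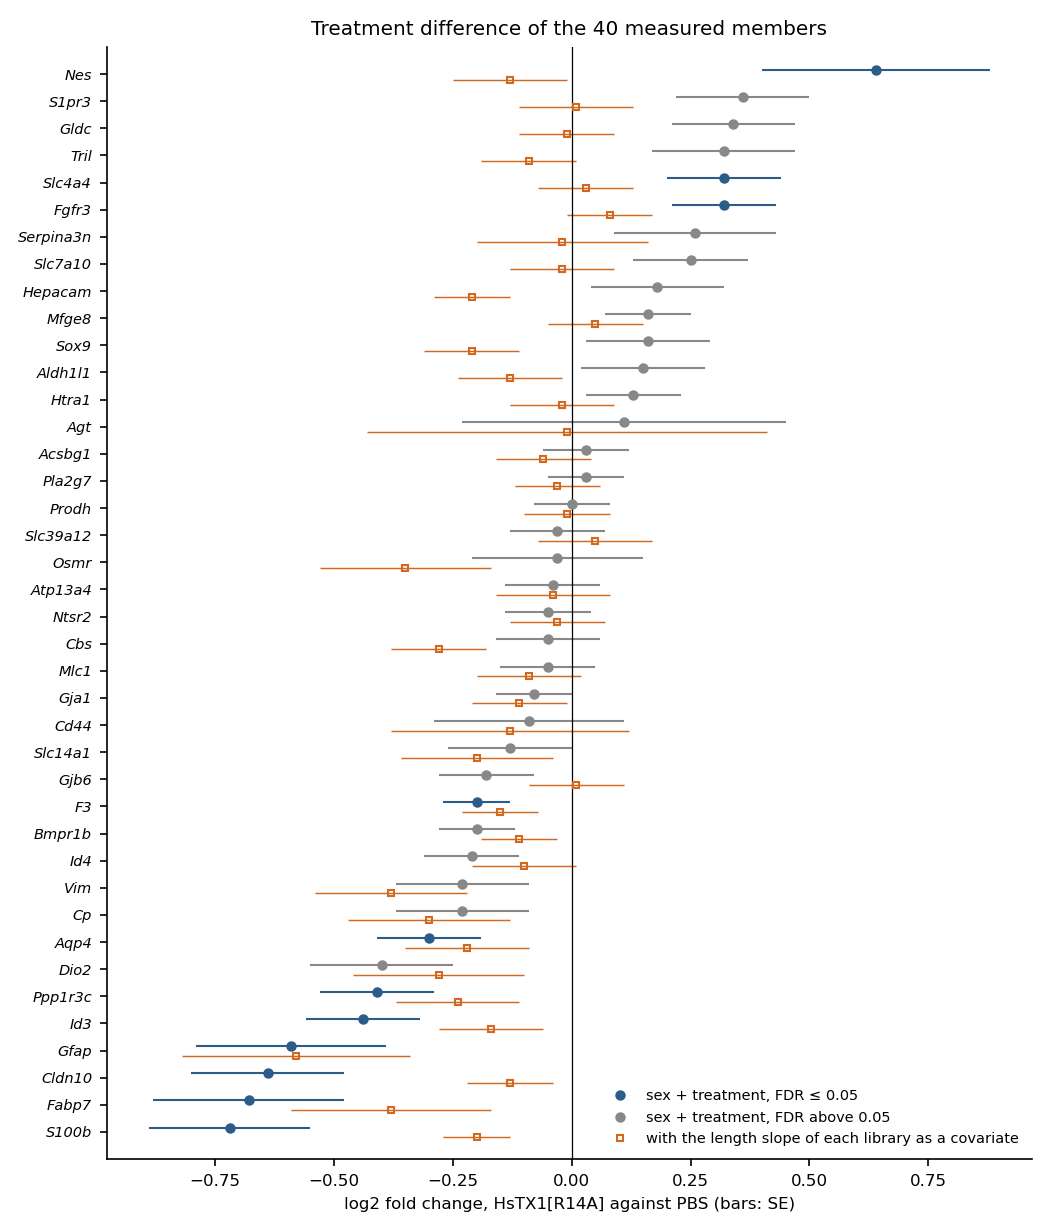
Log2 fold changes, treated over PBS, with SE for the 40 members, from the model with sex and treatment (circles, blue where called) and with the length slope added (open squares). Most squares lie nearer to 0 than their circles, as for S100b (-0.72 and -0.20) and Nes (0.64 and -0.13), while for Gfap both lie near -0.6. The median of the 40 members is -0.04 for the circles and -0.11 for the squares.

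The form of the library name was also shared unequally between the groups, with 10 PBS and 5 HsTX1[R14A] mice under one form and 2 PBS and 4 HsTX1[R14A] mice under the other. What the forms stand for is not given in the labels. With the form in the model, S100b at -0.62 (FDR = 0.0394), Cldn10 at -0.54 (FDR = 0.0443) and Id3 at -0.40 (FDR = 0.0495) were called, and Gfap at -0.43 (FDR = 0.0882) was not. Among the 15 mice of the first form alone no gene passed (5797 had an unadjusted p under 0.05), and S100b stood at -0.72 (FDR = 0.0629) and Gfap at -0.51 (FDR = 0.136). Among the other 6 mice no gene passed (532 had an unadjusted p under 0.05), with S100b at -0.38 and Gfap at -0.33, both with FDR = 0.855. Slc4a4 stood at 0.45 in the first form and at 0.01 (SE 0.15) in the second. Agt had -0.77 in the second form (SE 0.23, unadjusted p = 0.0120, FDR = 0.855), against 0.11 over all mice, and Dio2 0.17 against -0.40.

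The second question was whether females and males differed, in level or in response. No member was called between the sexes by edgeR, DESeq2 or limma/voom (in edgeR, 9 of 16303 genes were, 0.0552%). An unadjusted p under 0.05 in edgeR was found for 1765 of the 16303 genes, 1 of them a member. The smallest p-values were those of Fabp7, with a log2 difference of females minus males of -0.52 (SE 0.19, FDR = 0.446), Ntsr2 at 0.16 (FDR = 0.447) and Serpina3n at 0.30 (FDR = 0.448). Among PBS mice, Fabp7 was 42.7 ± 15.1 CPM (SD, n = 6) in females and 65.2 ± 17.2 CPM (SD, n = 6) in males, with overlapping ranges of 24.3 to 62.2 CPM and 46.3 to 85.5 CPM.

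The treatment by sex interaction was called for 0 of 16303 genes (0%) by edgeR (270 had an unadjusted p under 0.05, 1 of them a member), and for 0 by DESeq2 and limma/voom. Cd44, Cp and Gfap had the smallest p-values among members. Gfap went from 279 ± 61.9 CPM (SD, n = 6) to 243 ± 103 CPM (SD, n = 3) in females and from 360.3 ± 136 CPM (SD, n = 6) to 199 ± 31.2 CPM (SD, n = 6) in males. The 3 HsTX1[R14A] females were spread from 128 to 326 CPM, whereas the 6 HsTX1[R14A] males all lay between 173 and 246 CPM. Its log2 fold change was -0.20 (SE 0.29) in females and -0.85 (SE 0.23) in males, and the interaction of 0.65 (SE 0.38, unadjusted p = 0.0996, FDR = 1 in edgeR) was not called. Cd44 had log2 fold changes of 0.41 (SE 0.25) in females and -0.44 (SE 0.24) in males (interaction 0.86, SE 0.37, unadjusted p = 0.0298), and Cp of 0.08 and -0.44 (interaction 0.52, SE 0.28, unadjusted p = 0.0726). S100b was lower in both sexes, at -0.90 in females and -0.61 in males. In edgeR fits of each sex alone no gene was called, with unadjusted p under 0.05 for 5 members of 3318 genes in females and for 13 members of 4459 genes in males.

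**Figure D5:**
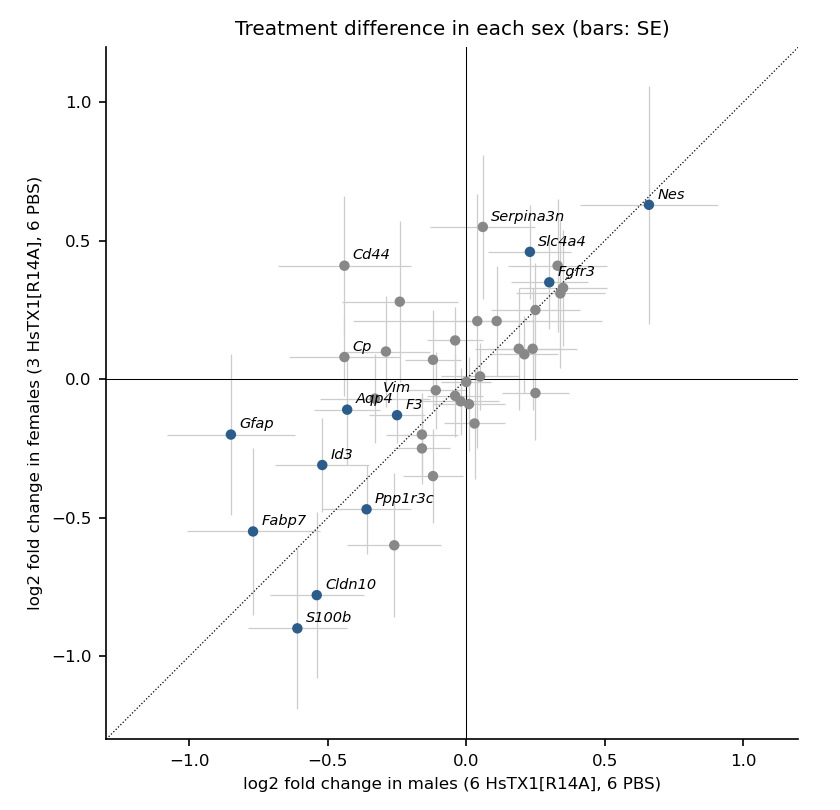
Log2 fold change, treated over PBS, in females (vertical axis, 3 and 6 mice) against males (horizontal axis, 6 and 6 mice) for the 40 members, with SE bars; members called over both sexes are blue and the dotted line marks equal change. S100b (-0.61 in males, -0.90 in females) and Nes lie near the line, while Gfap (-0.85 and -0.20) and Cd44 (-0.44 and 0.41) lie above it.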

How the data were processed

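Whole-brain RNA-seq of 21 SAMP8 mice was used. The authors deposited an estimated count per gene and library, not normalized, made with STAR on GRCm38 and with Salmon. Rounding to whole numbers preceded every test (90.496% of values were already whole to within 0.01). The filter behind the 16318 genes and whether counting used strand are not given in the sources used here. The table's 53 per-sample columns that match no labelled mouse or hold the authors' CPM (37 of CPM, 16 of counts) and its columns of the authors' own comparison (fold change, p-value, FDR) were not used.

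Groups, sex and mouse numbers came from the labels. Compared pair by pair within treatment and sex (48 pairs), libraries differed by a mean chi-square per gene of 7.58 to 288 (genes with at least 20 counts in sum), so no library was entered more than once. After filterByExpr and TMM scaling, genes were tested two-sided with edgeR 4.0.16 in R 4.3.3 on a model of sex plus treatment. Interaction and within-sex fits were made the same way. Log2 CPM carried a prior count of 2. Alternatives were limma 3.58.1 (voom), DESeq2 1.42.0, RLE scaling, other filters, no sex term, library name form (from the column headers), 1 surrogate variable (sva 3.50.0), the length slope as a covariate, length and GC trends removed by loess (span 0.5), fits within a name form, and fits without 1 mouse. The fit without PBS mice 103 and 90 was added after seeing the data. On simulated counts for 16299 genes, 185 of 200 genes changed 2-fold were recovered with 8 false calls for the treatment comparison. The simulated counts held no trend on transcript length and no difference between name forms. The 8 false calls therefore do not measure false calls in the real libraries.

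Lengths, GC content and positions are from GENCODE for GRCm38 (length found for 16239 genes), promoters from RefSeq. The members and gene lists were chosen with earlier results of these data known, so no set test was run. Named in full are Gfap, Aqp4, Aldh1l1, Gja1, S100b, Sox9, Vim, Serpina3n and in each role the 2 members with the smallest treatment p, for sex and interaction the 3 smallest, and in other lists up to 2 in each direction. Nes, the remaining called member, was added after its values were seen, as were the members named for extremes or for lying near the threshold. Within the HsTX1[R14A] group, sex comparisons rest on 3 females. The p-values rest on the spread between these mice that is left after sex and treatment. Differences between cages or batches, to which the labels do not tie mice, could not be separated from it.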

Additional observations from a re-analysis of the deposited data

Results flagged for a closer look

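In the 40 groups of 9 HsTX1[R14A] mice, 1 per member, 3 values stood apart by Dixon's test (critical ratio 0.493), and chance flags about 1 in 20 groups. Aldh1l1 in HsTX1[R14A] mouse 93 was 27.7 CPM, where the other 8 mice ran from 40.7 to 52.6 CPM (ratio 0.52). Gldc in the same mouse was 14.3 CPM, where the others ran from 21.5 to 26.5 CPM (ratio 0.587). Atp13a4 in HsTX1[R14A] mouse 71 was 18.8 CPM, where the others ran from 10.9 to 14.9 CPM (ratio 0.494). None of the 3 genes was called for treatment. Without HsTX1[R14A] mouse 93, 16 members were called in place of 11, where 40.6% of all genes were called in place of 31.6%. The PBS group, with 12 mice, was not tested in this way.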

How the results depend on the processing

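Against 11 called members in the reported fit, RLE scaling called 11 (32.3% of all genes), no filter on low counts 11 (31.5%), at least 10 counts in every mouse 13 (36.9%), limma/voom 12 (31.9%) and DESeq2 15 (37.7%). Aqp4 was not called with RLE scaling or limma/voom, nor Slc4a4 with limma/voom. The count fell to 6 without the sex term (18.3% of all genes), 3 with the library name form (12.3%) and 2 with 1 surrogate variable (S100b and Cldn10, 12.9%). It was 5 after removal of length and GC trends (15.3%) and 5 without PBS mice 103 and 90 (17.7%). With the length slope as a covariate, and in either name form alone, 0 members and 0% of all genes were called. The cause of these falls was not tested. Without PBS mouse 103 alone 11 were called (30.4% of all genes). Leaving out 1 mouse gave 5 to 16 called members (14% to 40.6% of all genes), with 5 without PBS mouse 90 (14%). There were 7 without PBS mouse 73 (23.6%) or 91 (26.4%) or HsTX1[R14A] mouse 89 (28.9%). There were 6 without HsTX1[R14A] mouse 98 (18.4%), 74 (22.9%), 88 (19.1%) or 81 (20%). Sex and interaction gave 0 called members in each fit that had them, which leaves out the fit without the sex term and those of 1 name form.

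Directions turned for 14 of the 40 members with the length slope, 6 after removal of length and GC trends, 4 with 1 surrogate variable and 12 in the less common name form. Among members named in full, with the length slope Aldh1l1 had a log2 fold change of -0.13, Sox9 -0.21, Serpina3n -0.02, Slc7a10 -0.02 and Nes -0.13. After removal of length and GC trends, Aldh1l1 had -0.09, Gja1 0.04 and F3 0.02. With 1 surrogate variable, Sox9 had -0.06. In the 6 mice of the less common name form, Aldh1l1 and Serpina3n had -0.08, Slc7a10 -0.0018 and Mfge8 -0.09. Without 1 mouse, F3 lost its call for PBS mice 73, 82, 90 and 91 and HsTX1[R14A] mice 98, 74, 88 and 81, and Fgfr3 for PBS mice 101 and 90 and HsTX1[R14A] mice 71, 72, 88 and 89. Nes kept its call only without PBS mouse 103, 84, 104 or 102 or HsTX1[R14A] mouse 93 or 92. No paired analysis was possible because the labels do not name the cages in which both treatments were given, and PBS and HsTX1[R14A] mice share no numbers.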
